A study of Mus musculus with 48 samples.

Results

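Ribosome footprint profiling (RPF-seq) sequences the stretches of mRNA that ribosomes protect from nuclease, so a footprint level reflects how much of a transcript is being translated. Of the 48 kidney libraries of the series, 12 RPF-seq libraries are described here, namely the 6 pools taken around lights-on (ZT22, ZT00 and ZT02, called dawn below) and the 6 pools taken around lights-off (ZT10, ZT12 and ZT14, called dusk). ZT is Zeitgeber time in hours, with ZT00 at lights-on and ZT12 at lights-off. The libraries were chosen by their labelled time alone. All mice were male C57BL/6JRj, 11-12 weeks old, with no treatment in the labels other than a 12 h light and 12 h dark cycle, and each library pooled the kidney lysates of 2 mice. Of 12423 genes present in both assays, 11863 had a median of at least 0.5 RPKM (reads per kilobase of coding sequence, scaled to library size) in both and were tested. That median was taken over all 24 libraries of each assay.

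The circadian clock of mammalian cells is a loop in which the activators BMAL1 (gene Arntl) and CLOCK or NPAS2 switch on the genes of their own repressors through E-box elements. The period and cryptochrome proteins (Per, Cry) close that loop, and the nuclear receptors REV-ERB alpha and beta (Nr1d1, Nr1d2) repress Arntl, Npas2 and Nfil3 through REV-ERB/ROR elements. The PAR bZIP factors DBP, TEF and HLF activate, and NFIL3 represses, genes with D-box elements. In the kidney the clock is known for its influence on salt, water and solute handling along the nephron.

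The depth of the 12 libraries relative to the median library, taken from the whole-read steps in the values, ran from 0.711 to 1.58, with medians of 1.23 at dawn and 1.02 at dusk. Each library correlated with the other 5 of its window at a mean Spearman rho (across genes) of 0.989 to 0.993, and between 0 and 14 genes were at 0 in a library. The 8 proximal tubule markers summed to between 11711 and 13599 RPKM at dawn and between 11034 and 13909 RPKM at dusk, so the labelled tissue carried its defining transcripts in every pool. None of the 7 adrenal cortex markers was among the genes tested, and of 5 lymphocyte markers only Ptprc was. In whole-kidney lysate, fewer cells of a type and less RNA per cell cannot be told apart.

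Between dawn and dusk, 248 genes differed in footprint level by at least 1.5-fold at an FDR under 0.05 (limma, Benjamini-Hochberg adjustment over all genes tested), which is 2.09% of the genes tested. Of these, 113 (0.953%) were higher at dusk and 135 (1.14%) higher at dawn, and such genes are termed called below. The median called gene differed 1.64-fold when higher at dusk and 1.71-fold when higher at dawn, 62 genes differed at least 2-fold and 10 at least 4-fold. Without the fold requirement 1059 genes (8.93%) passed, 546 of them higher at dusk and 513 higher at dawn. All 12 pools fell into separate ranges by window for 167 of the 248 called genes, against 572 (4.82%) of all genes tested. The median log2 difference over all genes tested was 0.00065. Since each library is a pool and the 3 times within a window were treated as one group, the spread behind each test holds the difference between pools and any change within the window.

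The genes of the clock loop took up most of the extreme differences. Of the 10 genes that differed at least 4-fold, 8 were clock genes or their close outputs (Npas2, Arntl, Nfil3, Ciart, Dbp, Per3, Nr1d2 and Bhlhe41), and the other two were Aqp8 and Ppard. All differences below are log2 values at dusk minus dawn on the log2(RPKM + 0.1) scale, with the standard error (SE) of limma and n = 6 pools a window, so that a negative value means a higher level at dawn.

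**Figure D1:**
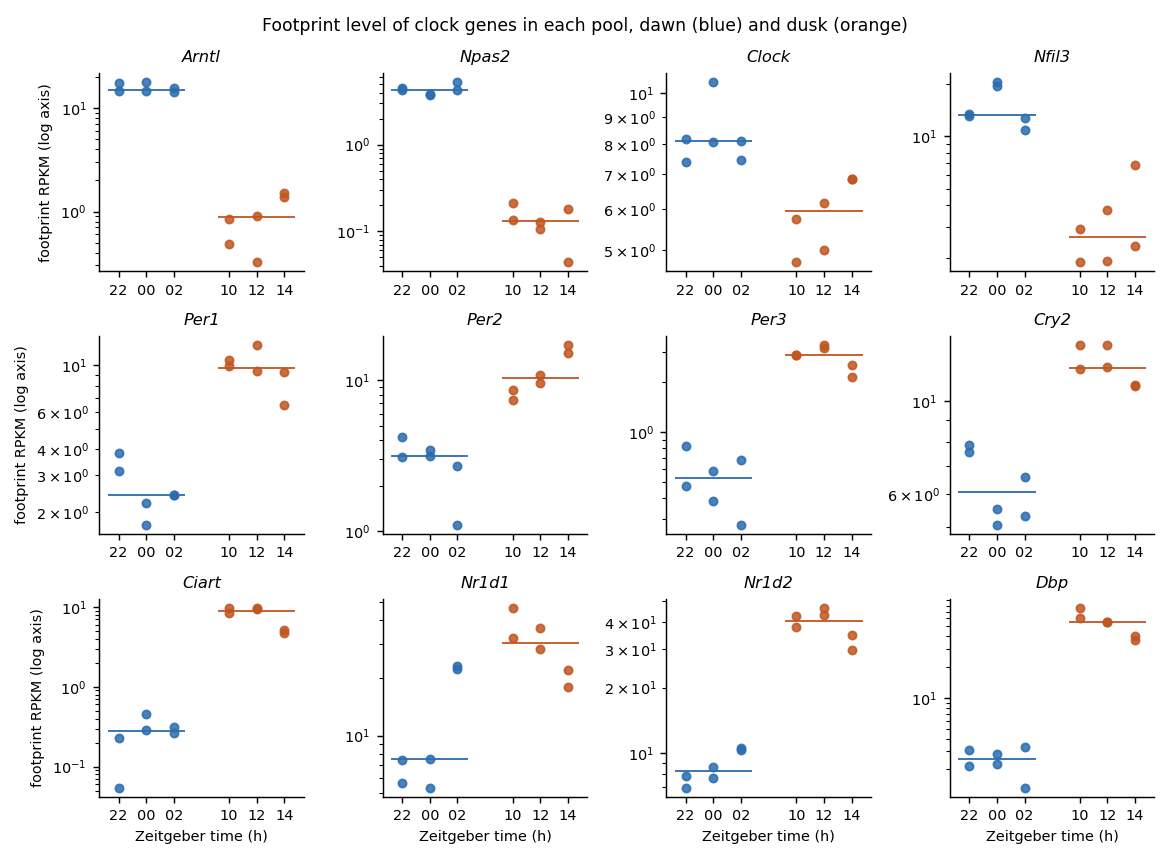
Footprint level in RPKM (log axis, each panel with its own range) of 12 clock genes in each pool against Zeitgeber time; points are pools, blue for dawn and orange for dusk, and lines are window medians. The dawn and dusk points separate in each panel but Nr1d1, where the 2 pools of ZT02 lie between the pools of ZT14 and those of ZT10.

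The activator genes were high at dawn. Npas2 (chr1:39193731-39363236, plus strand), whose product partners with BMAL1, was read at a lowest, median and highest of 3.75, 4.30 and 5.27 RPKM in the dawn pools and at 0.0440, 0.132 and 0.210 RPKM in the dusk pools. Every dawn pool thus lay above every dusk pool, and the dusk values rested on 2 to 12 reads a library against 170 to 439 at dawn. The difference was -4.27 ± 0.18 (adjusted p = 3.57e-09). Arntl (chr7:113207465-113314126, plus strand), which encodes BMAL1 itself, ran from 14.3 to 17.9 RPKM with a median of 15.1 at dawn, and from 0.325 to 1.52 RPKM with a median of 0.875 at dusk. The 2 pools of ZT14 were the highest of the dusk window, yet no dusk pool came near a dawn pool, and the difference was -4.12 ± 0.26 (adjusted p = 1.22e-07). Clock, the third activator gene, had medians of 8.08 RPKM at dawn and 5.95 RPKM at dusk. Its pools did not overlap either, but its difference of -0.49 ± 0.11 (adjusted p = 0.0123) stayed below 1.5-fold.

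The repressor genes were high at dusk, and 6 of the 8 listed were called, beside 2.09% of all genes tested. Ciart (chr3:95878503-95882251, minus strand), also known as Chrono, encodes a repressor of the activators and had the largest difference of any called gene, 4.47 ± 0.27 (adjusted p = 6.80e-08). Its dawn pools ran from 0.0546 to 0.457 RPKM with a median of 0.276, which is 1 to 18 reads a library, and its dusk pools from 4.79 to 9.76 RPKM with a median of 8.83. Within dusk the 2 pools of ZT14 were the lowest, with a mean of 5.00 RPKM. Per3 rose from a median of 0.527 RPKM (0.277 to 0.826) at dawn to 2.89 RPKM (2.14 to 3.32) at dusk, a difference of 2.25 ± 0.20 (adjusted p = 5.40e-06). Per2 ran from 1.10 to 4.20 RPKM at dawn and from 7.40 to 17.1 RPKM at dusk, and Per1 from 1.74 to 3.84 RPKM and from 6.51 to 12.5 RPKM.
In neither gene did the windows overlap, and the differences were 1.96 ± 0.27 for Per2 (adjusted p = 3.51e-04) and 1.87 ± 0.18 for Per1 (adjusted p = 8.62e-06). Per2 was highest at ZT14, with a mean of 16.1 RPKM, whereas Per1 was highest at ZT12, with 11.0 RPKM.

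The cryptochrome genes, whose products repress the activators together with the period proteins, differed in these windows. Cry2 had medians of 6.06 RPKM at dawn and 12.0 RPKM at dusk without overlap, a difference of 0.95 ± 0.11 (adjusted p = 9.45e-05). Cry1 ranged from 3.49 to 10.6 RPKM at dawn and from 3.26 to 10.3 RPKM at dusk, so that its windows covered nearly the same range. Its difference of -0.18 ± 0.29 did not pass (adjusted p = 0.776). Between midday (ZT04 to ZT08) and midnight (ZT16 to ZT20), in other libraries, Cry1 was higher at midnight by 2.91 (adjusted p = 3.85e-08). The remaining repressors on the list, Bhlhe41 and Bhlhe40, encode the E-box binding proteins DEC2 and DEC1. Bhlhe41 was called at 2.05 ± 0.17 (adjusted p = 1.64e-06), and Bhlhe40 reached 0.57 ± 0.13 (adjusted p = 0.0123) with overlapping windows.

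Among the REV-ERB and ROR receptors, Nr1d2 went from 6.93, 8.26 and 10.6 RPKM (lowest, median and highest) at dawn to 29.7, 40.3 and 46.6 RPKM at dusk, a difference of 2.16 ± 0.12 (adjusted p = 3.40e-08). Nr1d1 (chr11:98767932-98775333, minus strand) was called at 1.56 ± 0.36 (adjusted p = 0.0145), although its dawn pools (5.34 to 23.2 RPKM, median 7.50) overlapped the dusk pools (up to 46.6 RPKM, median 30.4). Its level moved within both windows, from a mean of 6.45 RPKM at ZT00 to 22.7 RPKM at ZT02, and from 39.4 RPKM at ZT10 to 19.9 RPKM at ZT14. The highest of the 12 times for Nr1d1 lay outside both windows, at ZT08 with 62.6 RPKM, and the midnight minus midday difference was -3.82 (adjusted p = 5.93e-05). Of the ROR genes, whose products activate through the same element, Rora differed by 0.23 ± 0.09 and did not pass (adjusted p = 0.138).

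The PAR bZIP genes were all called at dusk and their antagonist Nfil3 at dawn. Dbp (chr7:45705088-45710203, plus strand) went from 1.33, 2.55 and 3.34 RPKM at dawn to 36.5, 55.3 and 76.1 RPKM at dusk, a difference of 4.39 ± 0.21 (adjusted p = 6.43e-09), with the dusk pools falling in order from ZT10 to ZT14 by mean (68.4, 55.3 and 38.3 RPKM). Tef differed by 1.28 ± 0.07 (adjusted p = 3.40e-08) and Hlf by 0.65 ± 0.10 (adjusted p = 6.35e-04), so the 3 family members shared a direction over a wide range of sizes. Nfil3 (chr13:52967209-52981073, minus strand) had 10.9, 13.2 and 20.5 RPKM at dawn and 1.89, 2.62 and 6.86 RPKM at dusk. Its 2 pools of ZT00 were the highest of all and no dusk pool reached a dawn pool, with a difference of -2.28 ± 0.27 (adjusted p = 7.51e-05).

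The stretches of promoter below show, for the clock genes that were called, where the elements named above were found. They come from RefSeq (GRCm38.p6) in a window from 250 bases before to 50 bases after each gene's start, are read 5′ to 3′ on the gene's strand, and carry the element in capitals.
Ciart E-box, chr3:95882329-95882354, minus strand: catctagagtCACGTGttgccggtaa
Ciart E-box, chr3:95882271-95882296, minus strand: cagggggaggCACGTGcagaaccgca
Per1 E-box, chr11:69098773-69098798, plus strand: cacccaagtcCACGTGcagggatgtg
Ciart E-box, chr3:95882257-95882282, minus strand: tgcagaaccgCACGTGtctgggaggg
Bhlhe41 E-box, chr6:145865558-145865583, minus strand: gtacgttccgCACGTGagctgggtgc
Tef E-box, chr15:81802536-81802561, plus strand: gctgtggctcCACGTGctgcagctgg
Tef E-box, another annotated start, chr15:81811266-81811291, plus strand: cctggcccagCACGTGtctacatcgt
Per3 D-box, chr4:151044854-151044879, minus strand: acccgcgcgTTATGTAAggtactcgg
Per3 D-box, chr4:151044807-151044832, minus strand: cgcccgcggTTATGTAAcccccgccg
Arntl REV-ERB/ROR element, chr7:113207532-113207557, plus strand: ggcagaaagTAGGTCAgggacggagg
Nfil3 REV-ERB/ROR element, chr13:52981035-52981060, minus strand: gctcggaacTGACCTActaacacaca
The Nfil3 element is the reverse complement of the searched letters, and the Arntl element lies after the annotated start while the other 10 lie before theirs. A gene with several annotated starts has a window for each. Npas2, Per2, Cry2, Nr1d1, Nr1d2, Dbp and Hlf, also called, are not shown because no match was found or no promoter was available. Among the other leading and clock genes, E-box letters also stood in the windows of Aqp8, Slc16a1 and Batf3, called toward dawn. They stood as well in those of Coq10b and Mchr1, called toward dusk, and of Cry1, which was not called.

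Over the called genes as a whole, 9337 of the 11863 genes tested had a promoter in the RefSeq table, among them 86 of the 113 genes higher at dusk and 101 of the 135 higher at dawn. The E-box letters CACGTG, searched on both strands, stood in 22.1% of the dusk promoters and 15.8% of the dawn promoters, against 11.9% of all promoters of tested genes. The D-box letters TTANGTAA stood in 5 dusk promoters (5.81%), in none of the dawn promoters and in 1.90% of all. The REV-ERB/ROR letters TAGGTCA stood in 5 dawn promoters (4.95%), 3 dusk promoters (3.49%) and 2.44% of all. For the heat shock element pair TTCNNGAA the shares were 8.14% at dusk, 10.9% at dawn and 8.46% of all, and for the cAMP response element TGACGTCA 1.16%, 1.98% and 3.38%. A match describes letters in this short window and not a bound site, and overlaps between elements were not removed.

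Outside the clock loop, the genes with the largest differences toward dawn held transporters, receptors and a nuclear receptor. Aqp8 (chr7:123462291-123468004, plus strand), a water channel, ran from 2.35 to 4.62 RPKM with a median of 3.56 at dawn and from 0 to 0.945 RPKM with a median of 0.200 at dusk. No dusk pool reached a dawn pool, and 1 dusk pool listed the gene at 0. The difference was -3.57 ± 0.48 (adjusted p = 2.56e-04). Its size depends on the 0.1 added before the log. The replicate 2 pools of ZT10, ZT12 and ZT14 lay below that constant, at 0.0426, 0.0567 and 0 RPKM. Ppard (chr17:28232700-28301474, plus strand), the gene of the fatty acid receptor PPAR delta, had 15.2, 19.8 and 28.5 RPKM at dawn and 2.34, 2.52 and 3.45 RPKM at dusk, a difference of -2.87 ± 0.15 (adjusted p = 1.69e-08). Its dawn window reached its highest mean at ZT02, with 26.2 RPKM, and fell to 8.86 RPKM by ZT04.

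Slc16a1 (chr3:104638668-104658462, plus strand), which encodes the lactate and ketone body transporter MCT1, went from 108, 128 and 149 RPKM at dawn to 31.7, 34.5 and 48.3 RPKM at dusk, a difference of -1.77 ± 0.10 (adjusted p = 4.44e-08). Ndrg1 (chr15:66929318-66969640, minus strand), a gene known to respond to hypoxia and other stresses, was the most abundant of the leading genes at 2765, 3259 and 3547 RPKM at dawn against 1024, 1145 and 1208 RPKM at dusk. Its windows lay far apart relative to their own spread, with a difference of -1.51 ± 0.07 (adjusted p = 4.91e-09). Avpr1a, the V1a vasopressin receptor, had medians of 10.8 RPKM at dawn and 3.64 RPKM at dusk and a difference of -1.56 ± 0.10 (adjusted p = 1.33e-07). Foxs1, a forkhead transcription factor, differed by -1.74 ± 0.14 and Palm3, of the paralemmin family, by -1.71 ± 0.10. Ypel2 differed by -1.69 ± 0.12, Adamts4, a protease that cuts aggrecan, by -1.69 ± 0.23, Dtx4, a Deltex ubiquitin ligase, by -1.65 ± 0.21, and Pdzrn4 by -1.60 ± 0.22, all without overlap between windows. Batf3, a transcription factor of dendritic cells, completed the 15 at -1.53 ± 0.45 (adjusted p = 0.0451), but rested on 1 to 10 reads a library at dusk, overlapped between windows, and lost its call when any of 9 single libraries was left out.

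**Figure D2:**
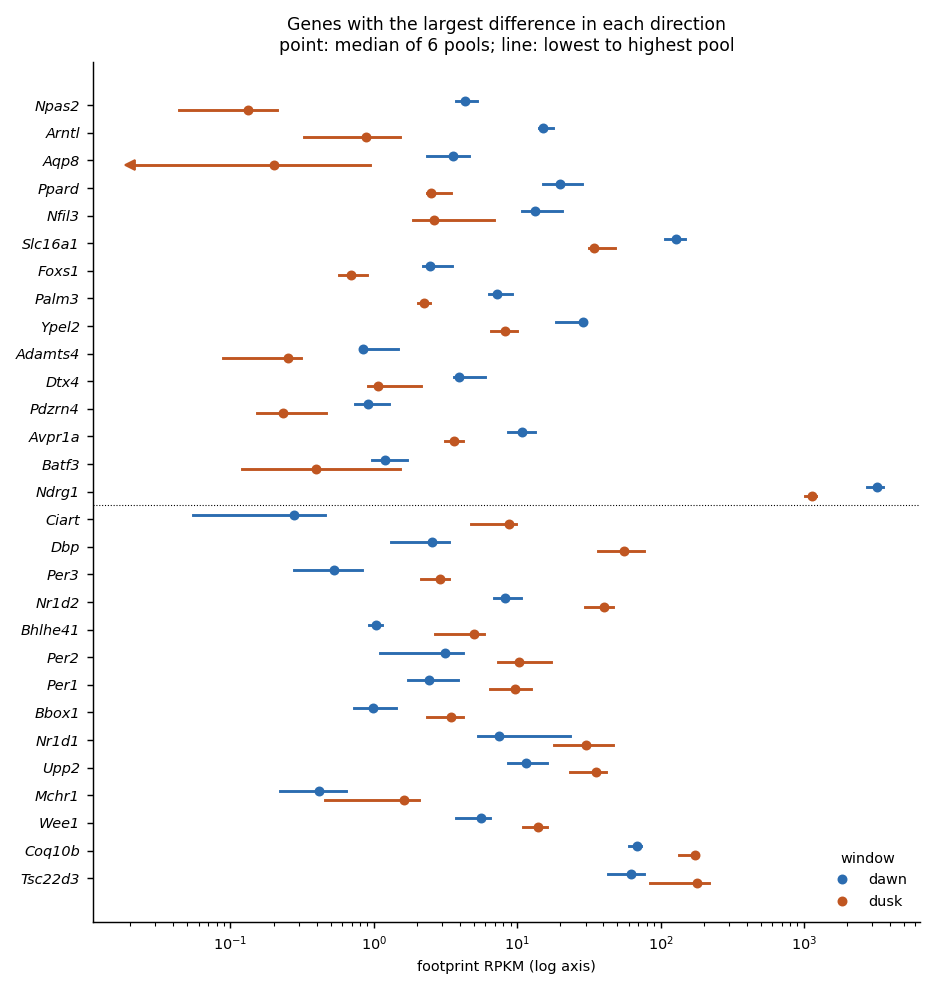
Footprint level in RPKM (log axis) of 29 of the genes with the largest differences, those higher at dawn above the dotted line and those higher at dusk below it; points are medians and lines run from the lowest to the highest of the 6 pools, blue for dawn and orange for dusk, and the arrow marks the Aqp8 pool at 0. The lines of a gene overlap only for Batf3, Nr1d1 and Mchr1.

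Toward dusk, the leading genes outside the clock loop belonged to several metabolic and hormone-responsive systems. Bbox1, the last enzyme of carnitine synthesis, ran from 0.732 to 1.43 RPKM at dawn and from 2.35 to 4.16 RPKM at dusk, a difference of 1.61 ± 0.17 (adjusted p = 2.30e-05). Upp2, a uridine phosphorylase, went from a median of 11.5 to 35.7 RPKM, a difference of 1.52 ± 0.16 (adjusted p = 2.30e-05). Both had separate windows. Coq10b, a coenzyme Q binding protein of mitochondria, rose from 59.9, 68.5 and 73.2 RPKM to 134, 173 and 179 RPKM, a difference of 1.31 ± 0.08 (adjusted p = 3.79e-08). Its promoter held both an E-box, cggcactggaCACGTGcgtcagccta (chr1:55052682-55052707, plus strand), and a D-box, tcacgaagaTTACATAAgtggcagac (chr1:55052599-55052624, plus strand). Tsc22d3, the glucocorticoid-induced leucine zipper, went from 43.0, 62.3 and 76.8 RPKM at dawn to 84.9, 178 and 217 RPKM at dusk. The difference was 1.29 ± 0.21 (adjusted p = 1.46e-03) and the level still climbed after the window, to a mean of 229 RPKM at ZT16. Mchr1, a receptor for melanin-concentrating hormone, differed by 1.45 ± 0.34 (adjusted p = 0.0150) with overlapping windows at a dusk median of 1.63 RPKM.

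The cell cycle and repair list held 4 called genes of 12 tested, beside 2.09% called over all genes, with a list median of 0.04. The list was chosen with earlier results of these data known, so this share carries no test. Its member Ddb2 was named by the study as rhythmic in footprints of these kidneys. Wee1, the kinase that holds back entry into mitosis, had 3.73, 5.56 and 6.41 RPKM at dawn and 11.0, 14.1 and 16.1 RPKM at dusk, a difference of 1.38 ± 0.13 (adjusted p = 6.68e-06). Cdkn1a, which encodes the cell cycle inhibitor p21, went the other way, from 12.3, 16.4 and 22.1 RPKM at dawn to 5.31, 6.36 and 7.44 RPKM at dusk. The Cdkn1a difference was -1.42 ± 0.12 (adjusted p = 4.21e-06). Outside both windows, at ZT16, Cdkn1a had a mean of 20.9 RPKM, close to its highest mean of 21.4 RPKM at ZT02, and Wee1 was still at 14.1 RPKM. Ccnd1, the gene of cyclin D1, rose at dusk by 0.66 ± 0.08 (adjusted p = 1.36e-04), and Ddb2, a sensor of ultraviolet DNA damage, by 0.64 ± 0.11 (adjusted p = 1.36e-03), which became 0.57 and fell short of 1.5-fold without a ZT14 pool. Myc, on the immediate early list, was the only gene called of the 17 tested there, at -0.72 ± 0.16 (adjusted p = 0.0115).

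Between these windows, genes of protein folding in the endoplasmic reticulum leaned to dawn, though several were highest at times outside both. Of 20 tested, 10 passed the FDR with a higher level at dawn and 2 with a higher level at dusk, and 2 and 1 of these reached 1.5-fold. Among all 11863 genes tested, 513 passed the FDR toward dawn and 546 toward dusk (8.93% together), and 2.09% were called. The list median was -0.27 against 0.00065 over all genes tested. Calr, the lectin chaperone calreticulin, ran from 1422 to 1756 RPKM at dawn and from 900 to 1236 RPKM at dusk, a difference of -0.61 ± 0.08 (adjusted p = 1.65e-04), and it fell short of 1.5-fold at -0.56 and -0.58 without either ZT12 pool. Sdf2l1, a partner of the chaperone BiP, had medians of 30.2 RPKM at dawn and 14.3 RPKM at dusk with overlapping windows (adjusted p = 5.31e-03). Most members that passed the FDR below 1.5-fold had the same direction, such as Hsp90b1 at -0.54 ± 0.08, Pdia6 at -0.57 ± 0.07, Pdia3 at -0.40 ± 0.06 and Canx at -0.20 ± 0.05, all without overlap. The exceptions were Herpud1, a component of the pathway that clears misfolded proteins, at 0.64 ± 0.08 (adjusted p = 1.34e-04), and Dnajb9, a BiP co-chaperone, at 0.42 ± 0.08 (adjusted p = 6.08e-03). Midnight medians (ZT16 to ZT20) were 51.9 RPKM for Sdf2l1, 820 for Hsp90b1, 326 for Pdia6 and 949 for Pdia3. The dawn medians of these genes were lower, at 30.2, 705, 294 and 915 RPKM. For Calr and Canx the midnight medians of 1588 and 822 RPKM lay below the dawn medians of 1654 and 852 RPKM. The cytosolic heat shock list of 20 genes, by contrast, had no called gene, 3 that passed the FDR toward dawn (among them Hsp90aa1 at -0.50 ± 0.14 and Hspa4l at -0.34 ± 0.07) and a median of -0.02. Hspa1a and Hspa1b on that list are near-identical copies whose reads may be split. Of the cold-inducible RNA-binding protein genes, Rbm3 rose at dusk by 0.72 ± 0.15 (adjusted p = 9.22e-03), while Cirbp at 0.51 ± 0.30 did not pass (adjusted p = 0.341). Within the dusk window, Cirbp fell from a mean of 88.8 RPKM at ZT10 to 28.8 RPKM at ZT14. Its midnight minus midday difference was -1.32 (limma, adjusted p = 1.63e-06).

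Cholesterol synthesis and its SREBP2 targets also leaned to dawn, with 10 of 24 genes passing the FDR there, 1 passing toward dusk and a median of -0.19. The share passing among all genes tested was 8.93%, with 513 of 11863 toward dawn and 546 toward dusk. Fdps and Idi1, enzymes of isoprenoid synthesis, were called at -0.74 ± 0.09 and -0.62 ± 0.10 (-0.52 for Idi1 without a ZT14 pool, short of 1.5-fold), and Srebf2, the gene of SREBP2, passed the FDR at -0.42 ± 0.06 (adjusted p = 6.55e-04). The gene that passed toward dusk was Hmgcs1, an early enzyme of the pathway, at 0.32 ± 0.06 (adjusted p = 2.39e-03). In the PPAR alpha list of 20 genes, 5 passed the FDR toward dusk and 1 toward dawn, with Ppara itself at 0.54 ± 0.08 and Cpt1a, the gate of fatty acid entry into mitochondria, at 0.40 ± 0.07. The gene toward dawn was Acot1, a thioesterase with close paralogs, called at -0.60 ± 0.15 (adjusted p = 0.0191), which lay between -0.53 and -0.55 and short of 1.5-fold when any one of 4 pools was left out. Corticosteroid target genes leaned to dusk, with 12 of 13 above 0, a median of 0.38 and 3 called there (Tsc22d3, Per1 and Mt1) against 1 called at dawn (Cdkn1a). Calls among all genes tested were 0.953% toward dusk and 1.14% toward dawn. Per1 is also one of the clock repressors counted above, and the windows of Mt1 overlapped.

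**Figure D3:**
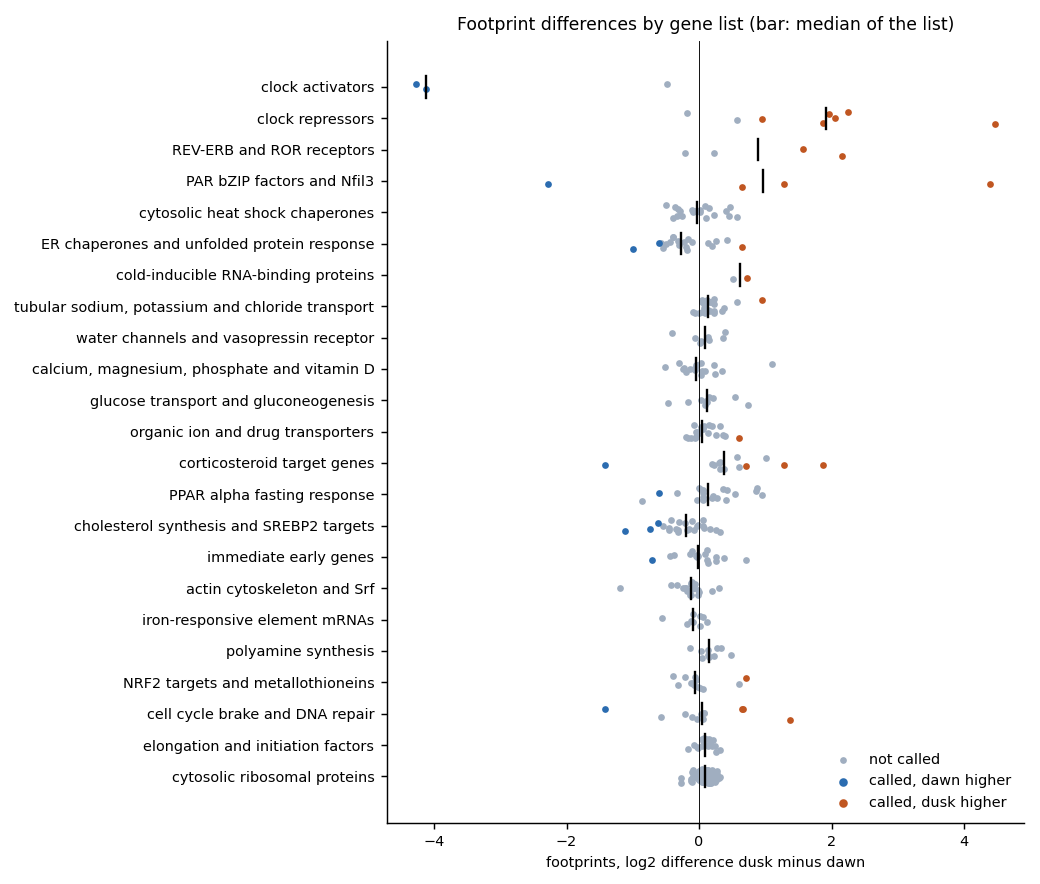
Footprint log2 difference (dusk minus dawn) of each tested member of the 23 gene lists; each point is a gene, coloured where called and grey otherwise, and the bar is the list's median. The clock lists spread from -4.27 to 4.47, while ribosomal protein and translation factor genes cluster near 0.

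Renal transport genes mostly differed little. For comparison, 546 of all 11863 genes tested passed the FDR toward dusk and 513 toward dawn (8.93% together), and 2.09% were called. Of 24 genes for sodium, potassium and chloride transport, 21 lay above 0 with a median of 0.13, 4 passed the FDR toward dusk and none toward dawn. Usp2, a deubiquitinase linked to the epithelial sodium channel and a known clock output, was the called member, with 37.6, 44.4 and 55.7 RPKM at dawn and 76.2, 87.9 and 92.9 RPKM at dusk. The difference was 0.95 ± 0.09 (adjusted p = 6.39e-06). The others were the sodium-proton exchanger gene Slc9a3 at 0.38 ± 0.08 (adjusted p = 0.0121) and the sodium pump subunit gene Atp1b1 at 0.35 ± 0.06 (adjusted p = 1.16e-03). The kinase gene Sgk1 passed narrowly at 0.57 ± 0.17 (adjusted p = 0.0481) and was highest at ZT16, outside both windows. The windows of Slc9a3 and Sgk1 overlapped. Among 8 genes for water channels and the vasopressin receptor, a list that did not hold Aqp8 or Avpr1a, Aqp3 passed the FDR at 0.39 ± 0.08 (adjusted p = 5.79e-03) and none was called. Of 20 organic ion and drug transporters the urate transporter gene Slc2a9 was called, at 0.61 ± 0.09 (adjusted p = 5.91e-04; 0.58 and 0.56, short of 1.5-fold, without a ZT00 or a ZT02 pool), and of 10 genes for glucose handling the fructose transporter gene Slc2a5 passed the FDR at 0.54 ± 0.09. Pck1, the gluconeogenic enzyme gene, at 0.74 ± 0.23 did not pass (adjusted p = 0.0585).

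Of 268 genes with a solute carrier symbol (Slc), a group looked at after the values were seen, 10 were called (3.73%, against 2.09% of all genes tested), 6 toward dusk and 4 toward dawn. They included the bile acid transporter gene Slc10a2 at -0.94 ± 0.10 (adjusted p = 2.30e-05), with 108 to 125 RPKM at dawn and 48.7 to 75.5 RPKM at dusk. Toward dusk they included the vitamin transporter gene Slc5a6 at 0.96 ± 0.09 (adjusted p = 8.18e-06) and the neutral amino acid transporter gene Slc6a19 at 0.61 ± 0.11 (adjusted p = 3.94e-03), the latter at 0.54 to 0.58 and short of 1.5-fold when any one of 5 pools was left out.

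The genes of the translation machinery stayed within a narrow band. Of 81 genes with ribosomal protein symbols, paralogs such as Rpl22l1 included, none was called, and Rpl22l1 at 0.32 (adjusted p = 0.0111) was the one that passed the FDR. Their differences ran from -0.27 to 0.32 with a median of 0.09, and 69 lay above 0. Of 18 elongation and initiation factor genes none passed, with a median of 0.09. No gene was called on the lists for calcium, magnesium, phosphate and vitamin D (18 tested), actin and Srf (20), iron-responsive element mRNAs (9) or polyamine synthesis (10). They held 2, 1, 1 and 1 genes past the FDR, which 8.93% of all genes tested passed. The one for iron was Tfrc, the transferrin receptor, at -0.55 ± 0.10 (adjusted p = 2.63e-03). Mt1, a metallothionein, was the called member of 13 NRF2 and metallothionein genes, at 0.71 ± 0.16 (adjusted p = 0.0106).

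Of the 54 cell type markers tested, 1 was called, beside 2.09% of all genes tested. The list medians ran from -0.29 for 3 adipocyte markers to 0.24 for 4 principal cell markers. The adipocyte markers summed to 64.8 to 161 RPKM at dawn and 73.3 to 139 RPKM at dusk, and the principal cell markers to 521 to 653 RPKM and 540 to 838 RPKM, with Aqp3 passing the FDR at 0.39 (adjusted p = 5.79e-03). Between these lay the proximal tubule (-0.02), thick ascending limb (0.17), distal convoluted tubule (-0.11), podocyte (-0.06), endothelial (-0.11), macrophage (-0.13) and erythroid (0.12) medians, and Ptprc, the one lymphocyte marker tested, differed by 0.20. The called marker was Atp6v1g3, a proton pump subunit of intercalated cells, at -0.61 ± 0.17 (adjusted p = 0.0384), a call lost when any one of 7 pools was left out (-0.51 to -0.61), and the 5 markers of that cell type summed to 211 to 286 RPKM at dawn and 163 to 249 RPKM at dusk. Smooth muscle and fibroblast markers had a median of -0.23, with sums of 264 to 446 RPKM at dawn and 246 to 323 RPKM at dusk. The part of these shifts in the genes above was not tested.

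The same pools gave RNA-seq libraries, in which 249 genes (2.1%) met the rule that called 248 in footprints. The 2 sets shared 152 genes, which is 61.3% of the footprint calls and 61.0% of the RNA calls, and 245 of the 248 footprint calls had the same sign in RNA. The 3 of opposite sign, named here because of their small number, were Tnfrsf19, Kcnn1 and Cenpa, all under 1 RPKM in the median pool of both windows, and each lost its footprint call when any one of at least 5 pools was left out (-0.96 to -1.06, -0.66 to -0.73 and 0.88 to 1.12). For the strongest clock genes the sizes were close as well, with an RNA difference of -4.40 for Npas2, -4.03 for Arntl, 4.20 for Ciart and 4.65 for Dbp. Translational efficiency (TE), the log2 footprint level minus the log2 RNA level of a pool, was tested for its own difference between windows.

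**Figure D4:**
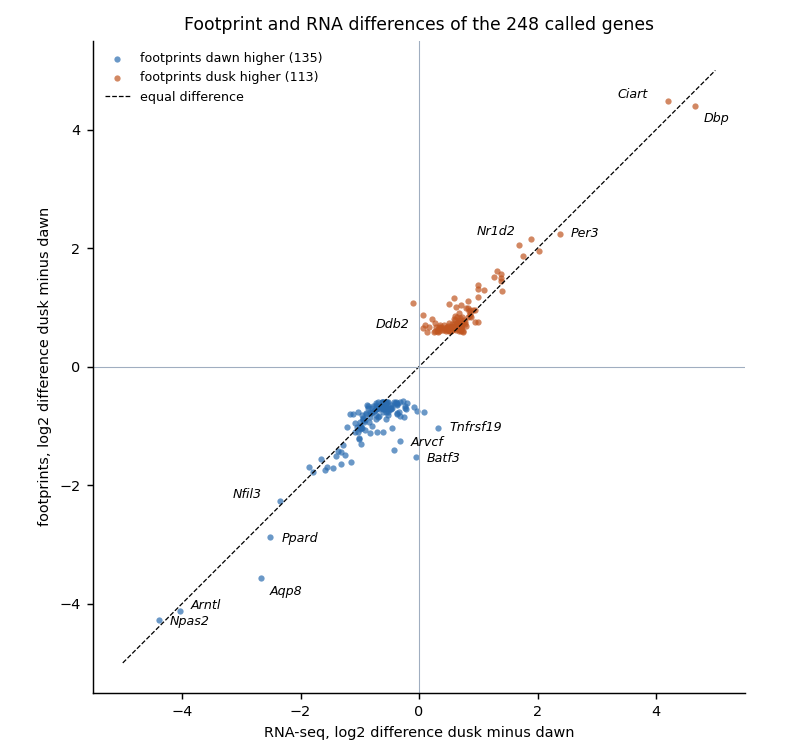
Log2 difference (dusk minus dawn) in footprints against that in RNA-seq for the 248 called genes, blue for dawn and orange for dusk; each point is a gene and the dashed line marks equal differences. Most points follow the line, and Batf3, Arvcf and Tnfrsf19 lie to its right, with footprint differences of -1.53, -1.25 and -1.03 and RNA differences of -0.05, -0.32 and 0.33.

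No called gene had a TE difference at an FDR under 0.05 (limma). By the same test, 53 of the 248 (21.4%) had an unadjusted p under 0.05 against 13.4% of all genes tested. The called genes were selected on the same footprint values that enter TE, so a larger share among them cannot serve as a test. The median half-width of the 95% interval of the TE difference among called genes was 0.27 on the log2 scale before any adjustment for the number of genes. Arvcf, a catenin of cell junctions, ran from 2.30 to 4.02 RPKM in footprints at dawn and from 1.01 to 2.08 RPKM at dusk, while its RNA differed by -0.32 (adjusted p = 0.350). Its TE difference was -0.93 with an interval of -1.45 to -0.41, which did not pass (adjusted p = 0.205). Ddb2 had a footprint difference of 0.64 beside an RNA difference of 0.06, and a TE difference of 0.58 (adjusted p = 0.239). Slc25a33, a mitochondrial nucleotide carrier, had 0.74 beside 0.27 (TE adjusted p = 0.171), and Dnajb9, not called, had 0.42 beside -0.02 (TE adjusted p = 0.162). Over all genes tested, 3 (0.0253%) passed in TE, namely Evl, Hoxb7 and Fam117a. That count rested on single pools, since by the same limma test it was 0 when either ZT12 pool, a ZT00, a ZT02 or a ZT14 pool was left out and 1 without the other ZT14 pool or a ZT22 pool, and it was also 0 with the timepoint means model.

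The other 12 footprint libraries, from midday and midnight, place the called genes on the full day. They did not enter the test of dawn against dusk, but they counted in the median RPKM that selected the genes tested. Of the 248 genes, 47 also met the same rule between midday and midnight, which is 19.0% of them and 13.9% of the 338 genes (2.85%) called there. Among the genes higher at dusk, 18 of these were higher at midday and 10 at midnight, and among the genes higher at dawn 6 were higher at midday and 13 at midnight. Nr1d1 and Dbp were thus midday genes as well, at -3.82 and -2.07 (midnight minus midday), while Per2, Tsc22d3 and Nfil3 were midnight genes at 1.73, 1.76 and 2.17. For Npas2, Ppard and Per3 the midnight minus midday differences of 0.17, 0.40 and -0.35 did not pass.

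**Figure D5:**
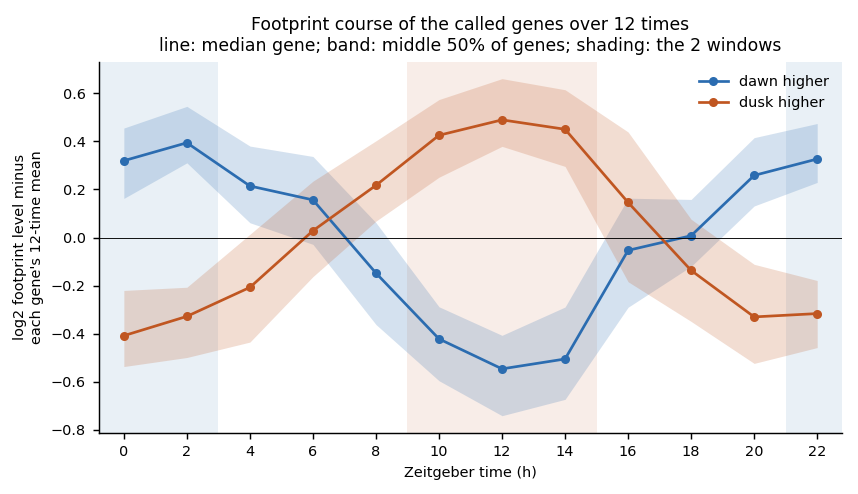
Footprint level (log2, minus the mean of each gene over 12 times) against Zeitgeber time for the 113 genes higher at dusk (orange) and the 135 higher at dawn (blue); lines are the median gene, bands the middle 50% of genes, and shading marks the dawn and dusk windows. The median courses cross between ZT06 and ZT08 and between ZT16 and ZT18, where neither window lies.

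By the mean of the 2 pools at each time, 91 of the 113 dusk genes (80.5%) had their highest of 12 times inside the dusk window, most often at ZT12 (43 genes). Of the 135 dawn genes, 80 (59.3%) were highest inside the dawn window, most often at ZT02 (36 genes), and a further 18 were highest at ZT20 and 14 at ZT04. The lowest time was placed differently, with 124 of the 135 dawn genes lowest inside the dusk window and 53 of the 113 dusk genes lowest inside the dawn window. These positions follow in part from how the genes were called and carry no test.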

How the data were processed

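Kidney RPF-seq libraries of ZT22, ZT00 and ZT02 were compared with those of ZT10, ZT12 and ZT14, and RNA-seq libraries of the same pools served for TE. The authors trimmed reads, mapped them to rRNA, tRNA, cDNA and the genome (GRCm38.p2; Bowtie2 2.2.1 and TopHat2 2.0.11 in the submitters' processing notes), counted reads on coding sequences, normalised by upper quantiles with edgeR and deposited RPKM values, from which genes under a cutoff had been removed. A change in total footprints per cell is therefore not visible in them. RPKM values were transformed to log2(RPKM + 0.1). Genes with a median of at least 0.5 RPKM over the 24 libraries of each assay were fitted with limma 3.58.1 (R 4.3.3, lmFit and eBayes with trend). Benjamini-Hochberg adjustment ran over 11863 genes. A gene was called at an FDR under 0.05 and a fold of at least 1.5. Kidneys were taken over 2 daily cycles per the study's methods, but no label ties a pool to a cycle. The p-values rest on the spread among the 6 pools of a window, which includes any change among its 3 times.

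Named genes were the 15 with the largest difference in each direction, up to 6 per direction with a TE difference among called genes (none qualified), and members of the gene lists. A few genes that met this rule are not reported here. Genes outside that rule (3 of opposite sign in RNA, solute carriers, Arvcf, Slc25a33 and the 3 with a TE difference, Evl, Hoxb7 and Fam117a) were named after their values were seen. The parts, lists and genes were chosen with earlier results of these data known, so the shares called within lists carry no test. All 1440 RPKM values of the 60 lowest genes were whole multiples of a step to within 1e-06, which gave relative depth and the reads behind low values (median 15 reads at 0.154 RPKM). On simulated data for this comparison (11863 genes) the fit recovered 79% of 1.5-fold and 93% of 2-fold changes by FDR alone, with 8.02% false among those passing, and for TE 69% and 93%. The simulated noise was normal and independent between genes and libraries. It held no course within a window and no effect shared by the genes of a pool, so these rates may differ in the real data. Positions come from GENCODE vM21 on GRCm38 and promoters from RefSeq. Figures and tables were made in Python 3.11.15. Alternatives were other pseudocounts, minimums, normalisations, models, thresholds and sets of libraries.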

Additional observations from a re-analysis of the deposited data

Results flagged for a closer look

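In 10 cases 1 pool stood far from the other 5 of its window for a named gene (chance gives about 1 in 20 groups, and 162 groups were looked at). At dusk, Ppard was 3.45 RPKM in a ZT10 pool against 2.34 to 2.64, Coq10b was 134 RPKM in the other ZT10 pool against 165 to 179, Mt1 was 921 RPKM in that same pool against 724 to 753, and Pck1 was 986 RPKM there against 2222 to 3233. At dawn, Ypel2 was 18.7 RPKM in a ZT00 pool against 26.2 to 30.2, Adamts4 was 1.47 RPKM in a ZT02 pool against 0.800 to 0.884, and Per2 was 1.10 RPKM in the other ZT02 pool against 2.68 to 4.20. Clock was 10.5 RPKM and Ccnd1 121 RPKM in the other ZT00 pool, against 7.39 to 8.17 and 145 to 156, and Pck1 was 944 RPKM in a ZT22 pool against 1351 to 1532.

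For 3 genes the footprint difference departed from the RNA difference of the same pools by the limma test of TE, a count that became 0 when any of 5 single pools was left out (either ZT12 pool, a ZT00, a ZT02 or a ZT14 pool) and 1 without the other ZT14 pool or a ZT22 pool. Evl had a TE difference of -0.75, from -0.45 in footprints and 0.30 in RNA. Hoxb7 had -0.66, from -0.44 and 0.23, and Fam117a had -0.72, from -0.05 and 0.67.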

How the results depend on the processing

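Under the alternatives tried, no called gene that the text names changed direction, and 25 of the 55 kept their call under all of them. The 248 footprint calls became 145 with ZT00 against ZT12 alone (67 of them at dawn), 1059 with no fold cutoff (546 at dusk, 513 at dawn) and 62 at 2-fold (23 and 39). The dusk count became 65 with a pseudocount of 1, 75 with a minimum of 2 RPKM, 75 with 3 timepoint means a side and 72 at an FDR under 0.01. Leaving out 1 library, or all pools of 1 replicate number, gave 73 to 280 calls (28 to 132 at dusk, 45 to 148 at dawn), the lowest without replicate 1, where 70 of the 248 genes remained. With each single library left out in turn, 169 of the 248 kept their call in all 12 fits, and among the genes named Batf3, Ddb2, Calr, Idi1, Slc2a9, Acot1, Atp6v1g3, Slc6a19, Kcnn1, Tnfrsf19 and Cenpa lost theirs in at least 1. Footprint pools with the same replicate number at different timepoints showed little tendency to deviate together (mean correlation 0.011, 2 of 15 timepoint pairs over 0.1). This does not concern TE, which paired the RNA and footprint libraries of a timepoint by replicate number. With the replicate block 243 genes were called, 110 at dusk and 133 at dawn, 241 of them shared. RNA calls became 49 with ZT00 against ZT12, 399 without ZT22 and ZT10, 1025 with no fold cutoff, 52 at 2-fold, and 74 to 269 with libraries left out. The 3 genes with a TE difference became 11 with all 24 libraries in 1 fit, 37 without ZT22 and ZT10, and 0 with the timepoint means model, 3 timepoint means a side, ZT00 against ZT12, without ZT02 and ZT14, at an FDR under 0.01 or at 2-fold, and ran from 0 to 3 with libraries left out. Among genes called in footprints, TE differences numbered 2 with a pseudocount of 1, 1 with all 24 libraries in 1 fit and 6 without ZT22 and ZT10. The midday against midnight calls became 209 with a pseudocount of 1, 211 at an FDR under 0.01, 1593 with no fold cutoff, 69 at 2-fold, and 45 to 371 with libraries left out. Of the genes that did not pass, Cry1 turned to 0.40 and Fam117a to 0.047 without ZT22 and ZT10. With libraries left out Cry1 ran from -0.54 to 0.19 and Fam117a from -0.22 to 0.12. The cause of these changes was not tested. Depth limits the genes near 0.5 RPKM, where a library holds few reads.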
